A study of Danio rerio with 6 samples.

Results

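Genes of fibroblast growth factor (FGF) signaling were followed in EGFP+ cells that had been sorted at 28 hpf out of zebrafish embryos carrying Tg(*fli1a*: EGFP). This stage is that of the labels, and the study's text in places gives a slightly earlier one for the sequencing. The members were all genes of the deposited FPKM table whose symbol begins with *fgf* and a digit or r, with *spry* and a digit, with *spred* and a digit, or with *dusp* and a digit, which gave 71 of 32057 genes. They fall into 31 FGF ligand genes, 7 FGF receptor genes, 4 further genes with *fgfr* in their symbol, 7 Sprouty and Spred genes, and 22 dual specificity phosphatase (Dusp) genes. Embryos injected with a splice-modifying morpholino (MO) against *nlrc3* gave 3 samples, and embryos injected with a standard control MO gave 3 samples. All 6 samples carried the transgene, in which EGFP is driven by the *fli1a* promoter, active in endothelium and also in neural crest cells of the pharyngeal arches, and none carried a mutant allele by its labels. According to the methods the *nlrc3* MO was injected at a higher concentration than the control MO, so the amount injected and the target of the MO cannot be told apart. The labels do not say how many embryos went into a sample or whether samples came from separate injections, so the p-values below measure only the spread between these samples.

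FGFs are secreted proteins that bind receptor tyrosine kinases together with heparan sulfate on the cell surface. The activated receptor passes its signal through the adaptor Frs2, Ras and Raf to the MAP kinase ERK, and ERK then raises transcription of ETS factors such as *etv4* and *etv5b* and of inhibitors that damp the same cascade, among them Sprouty, Spred and Dusp6. In the vertebrate embryo FGF ligands and receptors pattern the brain, the pharyngeal arches, the limb or fin buds and the tailbud, and in the zebrafish trunk FGF signaling also acts on the tissues from which hematopoietic stem cells arise.

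Most tested genes for secreted FGFs, their receptors, Sprouty, Spred and MAP kinase phosphatases were lower in the *nlrc3* MO samples, whereas most atypical Dusp genes were not called. Of the 71 members, 39 reached at least 0.5 FPKM in at least 3 samples and were tested with limma on log2(FPKM + 0.1), and 26 of these were called lower, meaning a Benjamini-Hochberg adjusted p under 0.05 and a fold change below 0.5. Among all 15155 tested genes 20.4% were called lower, 4.89% higher and 25.3% in either direction. No member was called higher in this limma fit, although 2 members, *fgfr1op2* and *dusp12*, had an unadjusted and an adjusted p under 0.05 with a smaller rise. Without a fold limit 28 members were lower and 2 higher at an adjusted p under 0.05, against 42.9% and 20.2% of all tested genes. In 30 of the 39 tested members every *nlrc3* MO sample lay below every control MO sample, against 46.1% of all tested genes, and in 3 members every *nlrc3* MO sample lay above, against 22.8%. The median log2 fold change was -1.91 over the 39 tested members and -0.22 over all tested genes. Of the 39 tested members, 7 passed the filter without any *nlrc3* MO sample at 0.5 FPKM, and such genes could only come out lower. These 7 were *fgf10a*, *fgf2*, *fgf20b*, *fgfr3*, *fgfr1bl* ENSDARG00000075027, *dusp23a* and *dusp28*. Of all 15155 tested genes 836 passed in this way. The plot of fold changes by class shows where the members lie.

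**Figure D1:**
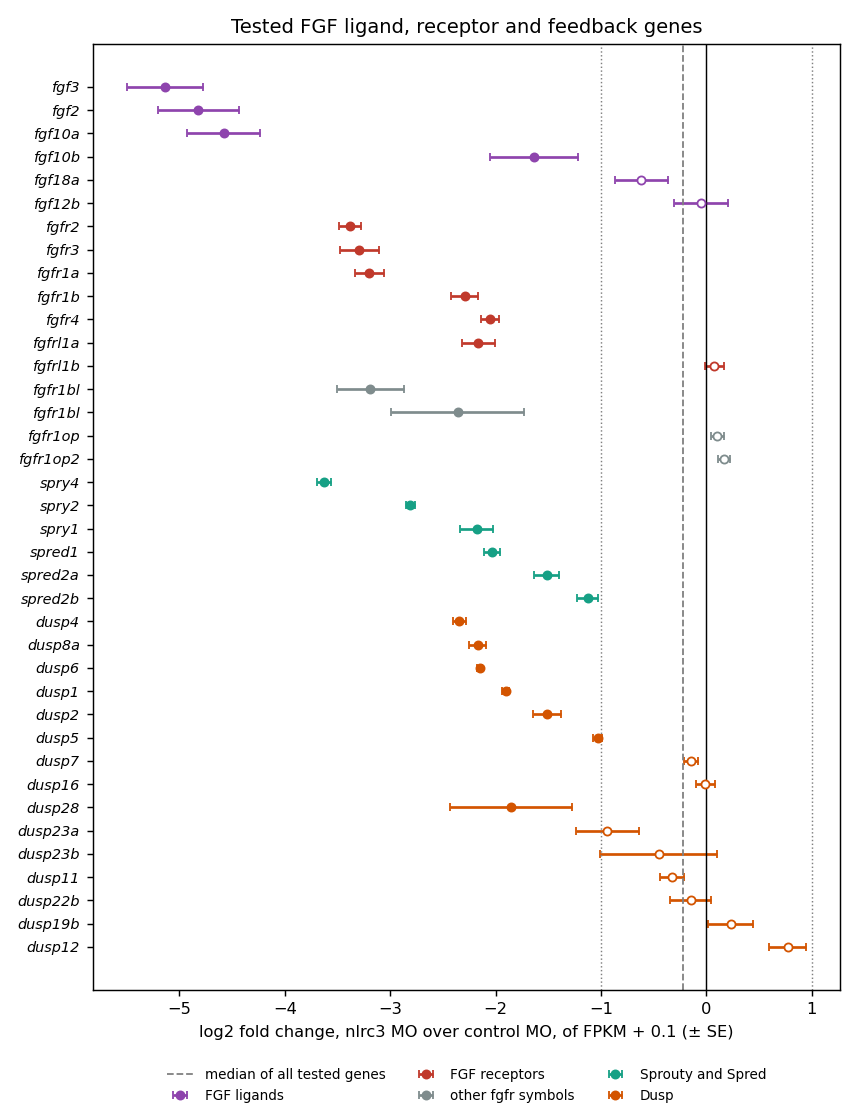
The log2 fold change (*nlrc3* MO over control MO, on log2(FPKM + 0.1)) with its standard error from limma is plotted for 38 of the 39 tested members, grouped by class. Filled circles were called, open circles were not, dotted lines mark fold changes of 0.5 and 2, and the dashed line is the median of all tested genes. *fgf20b* is left out because it was listed at 0 in all *nlrc3* MO samples. The receptors, Sprouty and Spred genes lie left of -1 apart from *fgfrl1b*, while *fgfr1op*, *fgfr1op2*, *dusp7* and *dusp16* lie near 0.

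Facts of the libraries bear on all values. The total FPKM per sample ran between 678620 and 687387 with the *nlrc3* MO and between 524846 and 525567 with the control MO, and read depth is unknown. The knocked-down gene *nlrc3* itself ranged from 0.15 to 0.26 FPKM with the *nlrc3* MO and from 0.70 to 1.09 FPKM with the control MO, a log2 fold change of -1.72 (standard error 0.30, Benjamini-Hochberg adjusted p = 0.00175 in limma). Like some genes below, *nlrc3* passed the filter through the control MO samples alone, so it could only come out lower. Of 12 endothelial markers, 2 were called lower, *fli1a* itself and *egfl7*, and the list summed to 572 to 599 FPKM in the *nlrc3* MO samples and 852 to 863 FPKM in the control MO samples. Of 12 markers of neural crest and arch mesenchyme, 11 were called lower, *foxd3* was not, and their sum was 11.6 to 13.7 FPKM in the *nlrc3* MO samples and 654 to 676 FPKM in the control MO samples, with no marker listed at 0 in all samples of a group. Of these 11, *twist1b*, *crestin*, *alx1* and *barx1* passed the filter through the control MO samples alone, so these 4 could only come out lower. Of 9 neural markers 5 were called lower, while 5 of 7 myeloid and 5 of 6 erythroid markers were called higher. Among the neural markers called lower, *neurod1* also passed the filter through the control MO samples alone. These counts stand beside 20.4% of all tested genes called lower and 4.89% called higher. With the fold limit, the share of endothelial markers called lower was no higher than that of all tested genes. Without a fold limit, 7 of the 12 endothelial markers were lower and 2 higher at an adjusted p under 0.05 in limma. The shares of all tested genes were then 42.9% and 20.2%.

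Among the ligands, expression in the sorted cells was narrow. Of 24 genes for secreted FGFs, 6 passed the filter and 5 of these were called lower, namely *fgf3*, *fgf10a*, *fgf10b*, *fgf2* and *fgf20b*. Over all tested genes the share called lower was 20.4%. *fgf10a*, *fgf2* and *fgf20b* passed the filter through the control MO samples alone, so these 3 could only come out lower. The summed FPKM of the 24 genes was 2.09 to 3.62 in the *nlrc3* MO samples and 35.5 to 37.4 in the control MO samples, so that the groups were far apart. In bulk samples of this kind, fewer cells that express a gene and less RNA per cell cannot be told apart.

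The most abundant ligand gene of the control MO samples was *fgf3*, which in zebrafish acts in the forming pharyngeal arches, ear and hindbrain. It was at 0.18, 0.74 and 0.30 FPKM in the *nlrc3* MO samples, against 14.93, 16.73 and 16.20 FPKM in the control MO samples. The highest *nlrc3* MO sample was thus far under the lowest control MO sample, and the mean was 2.55% of that of the control MO samples. The log2 fold change was -5.14 (standard error 0.36, Benjamini-Hochberg adjusted p = 1.22e-05 in limma), and it was -3.61 with a pseudocount of 1. *fgf10a*, a ligand made by mesenchyme that drives outgrowth of the pectoral fin bud, was at 0.23, 0.36 and 0.07 FPKM in the *nlrc3* MO samples, against 7.19, 6.52 and 7.23 FPKM in the control MO samples. Its groups were as clearly parted, at a log2 fold change of -4.58 (standard error 0.35, Benjamini-Hochberg adjusted p = 1.79e-05 in limma), or -2.72 with a pseudocount of 1.

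*fgf2*, the gene for basic FGF, known as a growth factor for endothelial cells, was listed at 0 in *nlrc3* MO sample 1 and at 0.17 and 0.14 FPKM in samples 2 and 3, against 5.83, 5.30 and 4.46 FPKM in the control MO samples. No *nlrc3* MO sample came near the control MO range, and the Benjamini-Hochberg adjusted p in limma was 2.52e-05. *fgf20b* was listed at 0 in all 3 *nlrc3* MO samples, against 3.56, 3.80 and 4.40 FPKM in the control MO samples (Benjamini-Hochberg adjusted p = 1.02e-06 in limma), and no fold is given against a group at 0. Its relative *fgf20a*, a gene needed for regeneration of the zebrafish fin, stayed below the filter and did not exceed 0.60 FPKM in any sample.

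The remaining ligands were low. *fgf10b* ranged over 0.14 to 0.55 FPKM in the *nlrc3* MO samples and over 0.82 to 1.07 FPKM in the control MO samples, and it lost its call with a pseudocount of 1 (log2 fold change -0.63, against -1.64). *fgf18a*, at 0.39 to 0.53 FPKM in the *nlrc3* MO samples and 0.61 to 0.84 FPKM in the control MO samples, did not pass (log2 fold change -0.62, Benjamini-Hochberg adjusted p = 0.0644 in limma). The genes *fgf11* to *fgf14* encode FGF homologous factors that stay inside the cell and bind sodium channels. Of these 7 genes *fgf12b* was tested, and it was at 0.73, 1.12 and 1.09 FPKM in the *nlrc3* MO samples, against 1.32, 0.95 and 0.80 FPKM in the control MO samples. Its groups overlapped, with a log2 fold change of -0.052 (Benjamini-Hochberg adjusted p = 0.875 in limma) that turned positive after median-of-ratios scaling (0.14).

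Of the 24 ligand genes below the filter, 6 were listed at 0 in every sample and none of the others exceeded 0.72 FPKM. Among them was *fgf8a*, the ligand of the midbrain-hindbrain boundary and the tailbud, which did not exceed 0.08 FPKM in any sample. The markers of the midbrain-hindbrain boundary were low as well, with a sum of 0.58 to 1.42 FPKM in the *nlrc3* MO samples and 1.52 to 2.14 FPKM in the control MO samples. Those of the tailbud and presomitic mesoderm summed to 9.46 to 11.7 FPKM in the *nlrc3* MO samples and 12.2 to 15.4 FPKM in the control MO samples, with *tbxta* and *cdx4* called higher and *msgn1* and *hes6* called lower. *hes6* alone gave 67.7% of the control MO sum. Without it, the sum of the other 8 identifiers in the *nlrc3* MO samples was 162% of the control MO mean.

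All 5 genes for receptor tyrosine kinases were called lower, and so was *fgfrl1a*, a receptor without a kinase domain. The remaining receptor gene, *fgfrl1b*, was not called. Of the tyrosine kinase genes, *fgfr3* passed the filter through the control MO samples alone, so its direction was fixed. Among all tested genes 20.4% were called lower. The tyrosine kinase genes summed to 11.8 to 13.8 FPKM in the *nlrc3* MO samples and to 71.7 to 73.2 FPKM in the control MO samples, and the 6 receptor calls held under every alternative tried.

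*fgfr4* had the highest FPKM, a unit scaled to transcript length, of all receptor genes in every sample. It was at 9.62, 7.60 and 8.44 FPKM in the *nlrc3* MO samples, against 35.71, 36.39 and 34.82 FPKM in the control MO samples, a log2 fold change of -2.05 (standard error 0.085, Benjamini-Hochberg adjusted p = 6.73e-07 in limma). *fgfr2*, whose isoforms serve both epithelium and mesenchyme, had the most negative log2 fold change of the receptors. It stood at 1.52, 1.55 and 1.9 FPKM in the *nlrc3* MO samples, against 18, 18.26 and 18.19 FPKM in the control MO samples, a log2 fold change of -3.38 (standard error 0.10, Benjamini-Hochberg adjusted p = 1.36e-07 in limma).

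Both copies of the *fgfr1* gene were lower. *fgfr1a* was at 0.65, 0.53 and 0.58 FPKM in the *nlrc3* MO samples, against 6.09, 5.93 and 6.55 FPKM in the control MO samples (log2 fold change -3.20). *fgfr1b* was at 1.72, 1.75 and 1.38 FPKM in the *nlrc3* MO samples, against 7.73, 8.16 and 9.01 FPKM in the control MO samples (log2 fold change -2.30). In both genes the groups were separate, and the *nlrc3* MO mean was 9.48% of the control MO mean for *fgfr1a* and 19.5% for *fgfr1b*. *fgfr3*, known as a brake on cartilage growth, was at 0.28, 0.32 and 0.41 FPKM in the *nlrc3* MO samples, against 4.19, 4.47 and 3.80 FPKM in the control MO samples. It passed the filter through the control MO samples alone, so it could only come out lower. In linear FPKM *fgfr3* kept the smallest fraction of its level among the receptors, 8.11% of the control MO mean, beside 9.13% for *fgfr2*.

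The pair of kinase-free receptors divided. *fgfrl1a* was at 2.40, 1.82 and 1.63 FPKM in the *nlrc3* MO samples, against 9.31, 7.98 and 9.74 FPKM in the control MO samples, a log2 fold change of -2.16 (standard error 0.16, Benjamini-Hochberg adjusted p = 1.41e-05 in limma). *fgfrl1b* was at 6.96, 6.52 and 5.95 FPKM in the *nlrc3* MO samples, against 5.70, 6.26 and 6.45 FPKM in the control MO samples. The *fgfrl1b* groups overlapped and its log2 fold change of 0.076 did not pass (Benjamini-Hochberg adjusted p = 0.497 in limma), and when samples were rescaled to the same total as TPM it became -0.30 (Benjamini-Hochberg adjusted p = 0.0191 in limma). The log2 ratio of *fgfrl1a* to *fgfrl1b* within each sample, which no scaling of the libraries can move, was -1.75 ± 0.184 in the *nlrc3* MO samples and 0.55 ± 0.183 in the control MO samples (SD, n = 3 each, exact permutation p = 0.1, two-sided, the smallest that 3 samples against 3 allow).

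**Figure D2:**
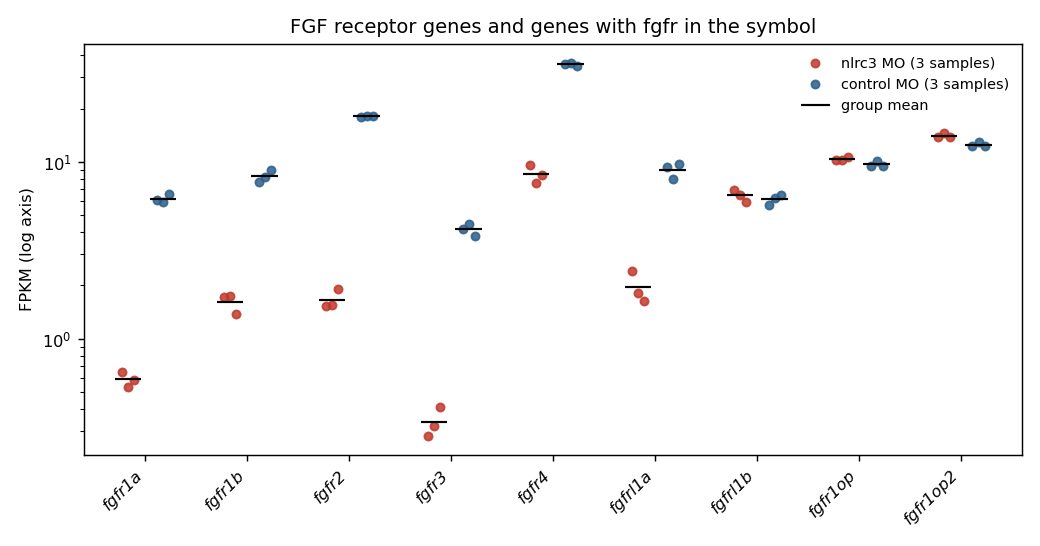
FPKM on a log axis in each of the 3 *nlrc3* MO samples (left of each pair) and the 3 control MO samples (right), with bars at the group means, for the 7 receptor genes and for *fgfr1op* and *fgfr1op2*. The groups are apart in 6 receptor genes and overlap in *fgfrl1b*, at 5.95 to 6.96 and 5.70 to 6.45 FPKM.

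The makeup of the receptor genes was compared as shares within each sample. *fgfr4* held 40.3% ± 2.16 of the summed FPKM of the 7 receptor genes in the *nlrc3* MO samples and 40.7% ± 1.22 in the control MO samples (SD, n = 3 each, exact permutation p = 0.8), so its share differed by less than the spread between samples. The share of *fgfr2* was 7.88% ± 1.41 in the *nlrc3* MO samples and 20.7% ± 0.172 in the control MO samples, and that of *fgfrl1b* was 30.6% ± 1.64 in the *nlrc3* MO samples and 7.00% ± 0.380 in the control MO samples (SD, n = 3 each, exact permutation p = 0.1 for either). Across the 12 shares and ratios compared, the Benjamini-Hochberg adjusted p was 0.109 for 11 and 0.8 for *fgfr4*, and 3 samples against 3 cannot pass a threshold of 0.05.

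**Figure D3:**
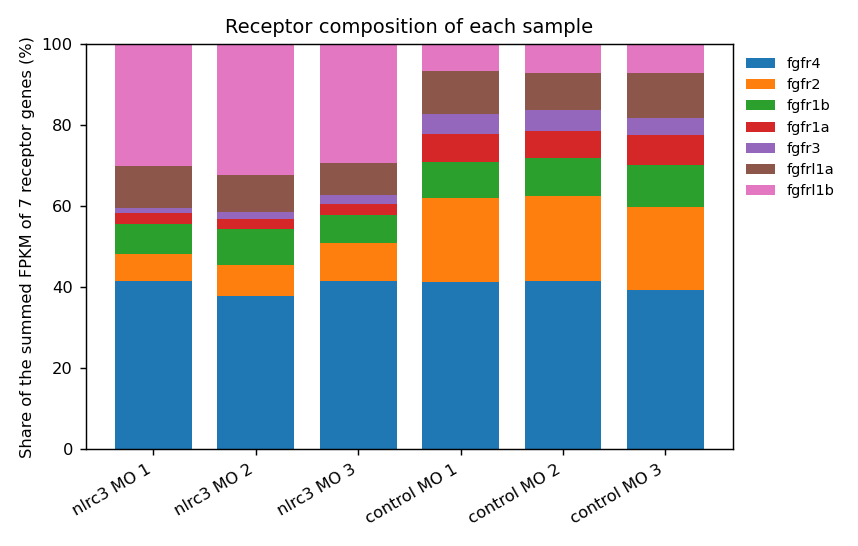
Each bar is 1 sample, with the 3 *nlrc3* MO samples on the left, and its segments are the percentages of the summed FPKM of the 7 receptor genes. The segment of *fgfr4* is similar in all samples, at 37.8% to 41.6%, while the segment of *fgfrl1b* is 29.3% to 32.5% in the *nlrc3* MO samples and 6.57% to 7.28% in the control MO samples.

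The other genes with *fgfr* in their symbol were of 2 kinds. The annotation of the table calls *fgfr1bl* a gene like *fgfr1b* and lists it under 2 identifiers. ENSDARG00000104015 was at 0.52, 1.49 and 1.2 FPKM in the *nlrc3* MO samples, against 9.72, 9.65 and 10.06 FPKM in the control MO samples. ENSDARG00000075027 was at 0.05, 0.49 and 0.00 FPKM in the *nlrc3* MO samples, against 1.01, 0.93 and 0.95 FPKM in the control MO samples. Both were called lower, but ENSDARG00000075027 not with a pseudocount of 1 (log2 fold change -0.76, against -2.36), and reads that these copies share with each other or with *fgfr1b* cannot be assigned from FPKM. *fgfr1op*, a centrosomal protein, and *fgfr1op2* are named after fusions with FGFR1 in human leukemia and are not receptors. *fgfr1op* was at 10.22, 10.30 and 10.68 FPKM in the *nlrc3* MO samples, against 9.42, 10.17 and 9.41 FPKM in the control MO samples. *fgfr1op2* was at 13.77, 14.50 and 13.73 FPKM in the *nlrc3* MO samples, against 12.24, 12.91 and 12.29 FPKM in the control MO samples. Their log2 fold changes of 0.11 and 0.16 became -0.27 and -0.21 as TPM, so their direction depends on the scaling.

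Sprouty proteins block the step from receptor to Ras and ERK, and all 3 Sprouty genes were called lower, with a summed level of 17.7 to 19.5 FPKM in the *nlrc3* MO samples and 158 to 168 FPKM in the control MO samples. *spry4* was at 7.74, 6.93 and 6.69 FPKM in the *nlrc3* MO samples, against 85.55, 92.30 and 89.24 FPKM in the control MO samples. This was the largest change in the class, at 8.0% of the control MO mean and a log2 fold change of -3.63 (standard error 0.064, Benjamini-Hochberg adjusted p = 1.07e-08 in limma). *spry2* was at 8.13, 8.23 and 8.33 FPKM in the *nlrc3* MO samples, against 56.53, 60.61 and 57.62 FPKM in the control MO samples (log2 fold change -2.81). *spry1* was at 3.29, 4.32 and 2.69 FPKM in the *nlrc3* MO samples, against 15.99, 15.20 and 15.70 FPKM in the control MO samples (log2 fold change -2.18).

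*spry4* was below *spry2* in every *nlrc3* MO sample and above it in every control MO sample. The log2 ratio of *spry4* to *spry2* was -0.21 ± 0.127 in the *nlrc3* MO samples and 0.61 ± 0.0173 in the control MO samples (SD, n = 3 each, exact permutation p = 0.1), a comparison chosen after the values were seen.

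Spred proteins bring the Ras inhibitor neurofibromin to the membrane. *spred1* was at 2.71, 2.82 and 2.99 FPKM in the *nlrc3* MO samples, against 12.11, 11.65 and 12.07 FPKM in the control MO samples, a log2 fold change of -2.04 (standard error 0.077, Benjamini-Hochberg adjusted p = 4.47e-07 in limma). *spred2a* was at 2.23, 2.58 and 2.87 FPKM in the *nlrc3* MO samples, against 7.95, 7.41 and 7.09 FPKM in the control MO samples (log2 fold change -1.52). The smallest change was in *spred2b*, at 3.57, 4.52 and 4.27 FPKM in the *nlrc3* MO samples, against 9.48, 8.73 and 9.05 FPKM in the control MO samples. Its log2 fold change of -1.13 became -0.92 after median-of-ratios scaling and -0.98 with a pseudocount of 1, which ended the call at a fold of 0.5, while the groups did not overlap. *spred3* did not exceed 0.11 FPKM in any sample and was not tested. The neurofibromin genes *nf1a* and *nf1b* were themselves called lower, with log2 fold changes of -1.26 and -2.23.

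Among the Dusp genes, the called genes were mostly MAP kinase phosphatases. Of 9 genes for MAP kinase phosphatases, which remove phosphate from ERK, JNK or p38, 8 were tested and 6 were called lower. The share over all tested genes was 20.4%. Of 13 atypical Dusp genes, which lack the domain that docks on MAP kinases, 7 were tested and 1, *dusp28*, was called lower, a share no higher than the 20.4% of all tested genes. *dusp28* passed the filter through the control MO samples alone and could only come out lower. The MAP kinase phosphatases summed to 200 to 205 FPKM in the *nlrc3* MO samples and 651 to 662 FPKM in the control MO samples, and the atypical genes to 13.2 to 14.7 FPKM in the *nlrc3* MO samples and 15.1 to 15.98 FPKM in the control MO samples.

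*dusp6*, the cytoplasmic phosphatase specific for ERK and a standard readout of FGF signaling in zebrafish, was the most abundant Dusp gene of the control MO samples. It was at 55.16, 56.35 and 55.97 FPKM in the *nlrc3* MO samples, against 247.24, 248.15 and 249.82 FPKM in the control MO samples. The samples of a group hardly differed, and the log2 fold change was -2.15 (standard error 0.024, Benjamini-Hochberg adjusted p = 1.30e-09 in limma). Its closest relative, *dusp7*, which also acts on ERK in the cytoplasm, was at 9.36, 9.86 and 9.75 FPKM in the *nlrc3* MO samples, against 11.31, 10.93 and 9.90 FPKM in the control MO samples. Every *nlrc3* MO sample lay below every control MO sample by a narrow margin, but the difference did not pass (log2 fold change -0.15, Benjamini-Hochberg adjusted p = 0.106 in limma). The log2 fold change of *dusp7* turned to 0.063 after median-of-ratios scaling. As TPM it was -0.52 (Benjamini-Hochberg adjusted p = 0.000357 in limma), within the fold limit, so the outcome depends on the scaling.

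The nuclear phosphatases that growth factors induce were also lower. *dusp4* was at 11.47, 10.11 and 11.63 FPKM in the *nlrc3* MO samples, against 57.10, 57.18 and 55.22 FPKM in the control MO samples (log2 fold change -2.34). *dusp1* was at 39.91, 41.58 and 41.09 FPKM in the *nlrc3* MO samples, against 155.99, 149.44 and 154.48 FPKM in the control MO samples (log2 fold change -1.91). *dusp2* was at 9.61, 8.68 and 6.65 FPKM in the *nlrc3* MO samples, against 21.77, 25.17 and 24.19 FPKM in the control MO samples (log2 fold change -1.51). In each of these genes the *nlrc3* MO samples kept between 19.6% and 35.1% of the control MO mean.

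*dusp5*, a nuclear phosphatase specific for ERK, kept more of its level than the other called phosphatases. It was at 71.31, 65.44 and 70.63 FPKM in the *nlrc3* MO samples, against 147.64, 139.58 and 136.99 FPKM in the control MO samples, 48.9% of the control MO mean. Its log2 fold change of -1.03 (standard error 0.044, Benjamini-Hochberg adjusted p = 8.43e-07 in limma) lay at the fold limit, and it was -0.82 after median-of-ratios scaling and -0.99 without *nlrc3* MO sample 2. *dusp6* was thus below *dusp5* in every *nlrc3* MO sample and above it in every control MO sample. The share of *dusp6* in the summed FPKM of the MAP kinase phosphatases was 27.5% ± 0.607 in the *nlrc3* MO samples and 37.9% ± 0.520 in the control MO samples, and that of *dusp5* was 34.0% ± 1.16 in the *nlrc3* MO samples and 21.6% ± 0.653 in the control MO samples (SD, n = 3 each, exact permutation p = 0.1 for either).

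The phosphatases that prefer JNK and p38 divided as the kinase-free receptors did. *dusp8a* was at 3.39, 3.24 and 3.75 FPKM in the *nlrc3* MO samples, against 15.75, 15.28 and 16.62 FPKM in the control MO samples (log2 fold change -2.17). *dusp16* was at 4.54 to 4.77 FPKM in the *nlrc3* MO samples and 4.52 to 5.09 FPKM in the control MO samples, with a log2 fold change of -0.012 (Benjamini-Hochberg adjusted p = 0.913 in limma). The log2 ratio of *dusp8a* to *dusp16* was -0.44 ± 0.0972 in the *nlrc3* MO samples and 1.75 ± 0.125 in the control MO samples (SD, n = 3 each, exact permutation p = 0.1). *dusp10* did not exceed 0.64 FPKM and was not tested.

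The atypical members were mostly not called, some of them only because of the fold limit. *dusp28* was at 0.24, 0.28 and 0.00 FPKM in the *nlrc3* MO samples, against 0.69, 1.16 and 0.51 FPKM in the control MO samples. Its call was lost with either other pseudocount and without control MO sample 1 or 2 (Benjamini-Hochberg adjusted p = 0.0586 and 0.0862 in limma). *dusp12* was higher, at 2.36 to 2.90 FPKM in the *nlrc3* MO samples and 1.16 to 1.63 FPKM in the control MO samples, with a log2 fold change of 0.77 (Benjamini-Hochberg adjusted p = 0.00677 in limma) under the fold limit. The other 5 tested atypical genes had log2 fold changes from -0.94 to 0.23. Of these, *dusp23a* (-0.94) and *dusp11* (-0.33) were lower without reaching the fold limit (Benjamini-Hochberg adjusted p = 0.0263 and 0.0407 in limma). The other 3 had an adjusted p of 0.05 or more. In linear FPKM *dusp23a* was at 44.6% of the control MO mean, so it missed the fold limit only on the scale of the fit. It passed the filter through the control MO samples alone and could only come out lower.

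**Figure D4:**
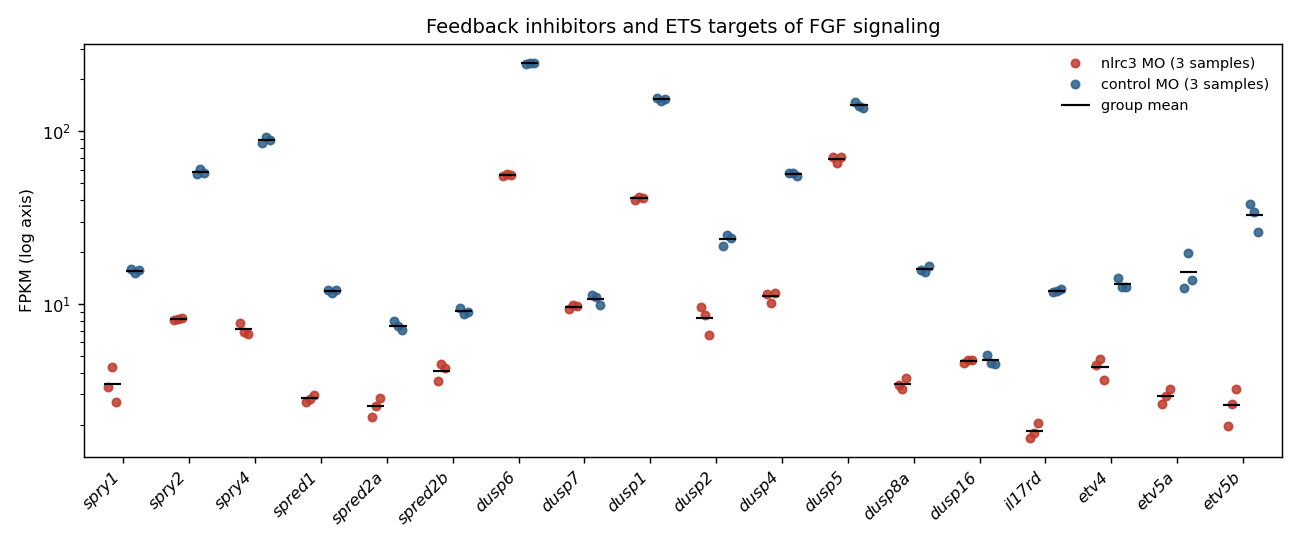
FPKM on a log axis in the 3 *nlrc3* MO samples (left of each pair) and the 3 control MO samples (right), with bars at the group means, for Sprouty, Spred and MAP kinase phosphatase genes and for 4 further targets of the pathway. *spry4* is at 6.69 to 7.74 FPKM in the *nlrc3* MO samples and 85.6 to 92.3 FPKM in the control MO samples, while *dusp16* overlaps and *dusp7* is nearly level.

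Of a list of 11 further targets and inhibitors of the pathway, 10 were tested and 9 were called lower. For all tested genes this share was 20.4%. The ETS factor gene *etv5b* was at 1.97, 2.64 and 3.22 FPKM in the *nlrc3* MO samples, against 38.17, 34.20 and 26.25 FPKM in the control MO samples, a log2 fold change of -3.61 (standard error 0.20, Benjamini-Hochberg adjusted p = 2.86e-06 in limma). Its relatives were lower as well, *etv5a* at 2.64, 2.95 and 3.24 FPKM in the *nlrc3* MO samples, against 12.32, 19.66 and 13.80 FPKM in the control MO samples. *etv4* was at 4.46, 4.80 and 3.63 FPKM in the *nlrc3* MO samples, against 14.19, 12.62 and 12.47 FPKM in the control MO samples.

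*il17rd*, which encodes the membrane inhibitor Sef, was at 1.67, 1.80 and 2.04 FPKM in the *nlrc3* MO samples, against 11.78, 11.83 and 12.18 FPKM in the control MO samples (log2 fold change -2.64, standard error 0.099, Benjamini-Hochberg adjusted p = 4.12e-07 in limma). *flrt3*, a membrane protein that binds FGF receptors in *Xenopus*, was at 12.98, 13.74 and 14.29 FPKM in the *nlrc3* MO samples, against 29.62, 28.36 and 28.74 FPKM in the control MO samples. Its log2 fold change of -1.08 became -0.87 after median-of-ratios scaling, under the fold limit. The immediate early gene *egr1*, which ERK induces in answer to many signals, was at 48.3 to 50.3 FPKM in the *nlrc3* MO samples and 171 to 175 FPKM in the control MO samples.

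Proteins that bind FGFs at the cell surface, and the enzymes that make or modify heparan sulfate, were listed under 24 symbols. Of these 20 were found under 22 identifiers, 16 were tested and 11 were called lower, against 20.4% of all tested genes. *flrt3* is counted both here and among the targets above. In this list 2 of the tested genes passed the filter without any *nlrc3* MO sample at 0.5 FPKM. The syndecan gene *sdc4*, which encodes a heparan sulfate carrier, was at 34.49, 38.13 and 35.24 FPKM in the *nlrc3* MO samples, against 322.60, 324.94 and 320.97 FPKM in the control MO samples, a log2 fold change of -3.16 (standard error 0.040, Benjamini-Hochberg adjusted p = 2.21e-09 in limma). *fgfbp2a*, a gene for an FGF-binding protein, was listed at 0 in all *nlrc3* MO samples, against 8.84, 8.27 and 9.16 FPKM in the control MO samples. Co-receptors of the endocrine FGFs, *kl* and *klb*, did not exceed 0.40 FPKM in any sample.

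Of the kinases and adaptors that carry the signal inside the cell, 32 listed symbols stood under 33 identifiers. Of these 30 were tested, 2 were called lower, a share under the 20.4% of all tested genes, and none higher by limma, though 16 were lower and 5 higher at an adjusted p under 0.05 without a fold limit, beside 42.9% and 20.2% of all tested genes. The summed FPKM of this list was 281 to 283 in the *nlrc3* MO samples and 301 to 310 in the control MO samples. The called genes were *frs2a*, the docking protein of FGF receptors, at 0.88 to 1.02 FPKM in the *nlrc3* MO samples and 3.14 to 4.24 FPKM in the control MO samples, and the adaptor *grb2a*, at 1.9 to 2.05 FPKM in the *nlrc3* MO samples and 5.03 to 6.0 FPKM in the control MO samples. Their more abundant copies *frs2b* and *grb2b* had log2 fold changes of -0.084 and 0.19, *frs2b* at 10.8 to 11.6 FPKM in the *nlrc3* MO samples and 11.5 to 12.2 FPKM in the control MO samples. The docking protein gene *gab1* had the highest log2 fold change of the list, 0.96 (standard error 0.033, Benjamini-Hochberg adjusted p = 2.81e-07 in limma), at 52.1 to 53.3 FPKM in the *nlrc3* MO samples and 26.9 to 27.3 FPKM in the control MO samples.

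The summed levels of the FGF lists were set beside those of the cell type markers. The *nlrc3* MO mean was 8.16% of the control MO mean for secreted FGFs, 11.5% for Sprouty, 17.6% for receptor tyrosine kinases, 31.0% for MAP kinase phosphatases and 33.6% for Spred. It was 1.88% for the markers of neural crest and arch mesenchyme, 16.5% for neural markers, 48.7% for epidermal markers, 68.5% for endothelial markers, 227% for myeloid and 303% for erythroid markers. Single genes carried some of these sums, *krt8* giving 90.4% of the epidermal and *tubb5* 85.3% of the neural sum of the control MO samples. Without them the *nlrc3* MO mean was 115% of the control MO mean for the other 7 epidermal markers and 41.5% for the other 8 neural markers. Leaving out the most abundant gene of each list moved the mesenchymal markers to 2.25%, secreted FGFs to 12.5%, Sprouty to 15.8%, receptor tyrosine kinases to 11.4%, MAP kinase phosphatases to 36.3% and Spred to 40.6%, a setting chosen after the data were seen. The endothelial markers went both ways, from *egfl7* at 38.2% and *fli1a* at 44.3% of the control MO mean to *etv2* at 113% and *tek* at 121%, both higher at an adjusted p under 0.05 (limma with Benjamini-Hochberg adjustment) and under the fold limit. The FGF lists given so far kept more of their level than the mesenchymal markers and less than the endothelial markers. Other lists fell on both sides of the endothelial markers. Ligand binding and co-receptor genes were at 19.8%, further targets and inhibitors at 28.8% and kinase-free receptors at 55.6%. Atypical Dusp genes were at 89.7%, the intracellular FGF homologous factors at 90.3% and signal transduction genes at 92.1%. The part of the mesenchymal, neural and blood cell markers in the lower FGF genes was not tested.

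**Figure D5:**
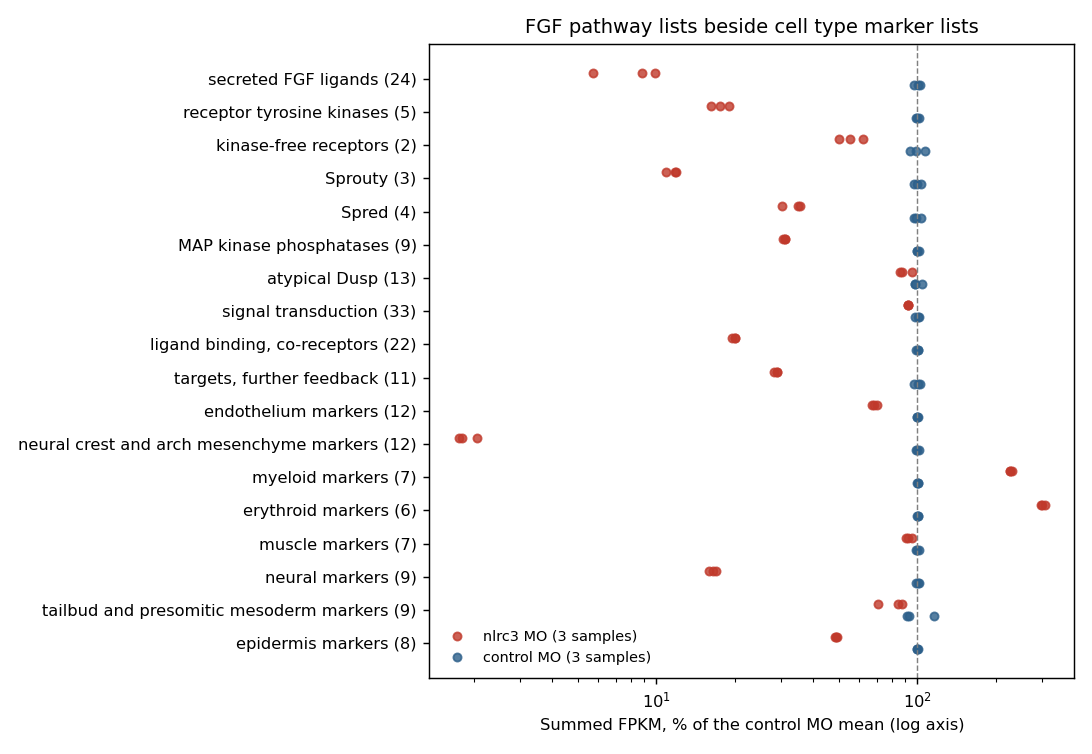
Summed FPKM of each list shown, as a percentage of the mean of the control MO samples on a log axis, in the 3 *nlrc3* MO samples (upper dots) and the 3 control MO samples (lower dots), with the number of genes in brackets. The markers of the midbrain-hindbrain boundary are left out. Secreted FGFs, Sprouty and receptor tyrosine kinases lie between 5.72% and 19.0% in the *nlrc3* MO samples, the mesenchymal markers near 2% (1.75% to 2.07%), and signal transduction genes at 91.8% to 92.4%.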

How the data were processed

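RNA sequencing covered EGFP+ cells sorted by the authors from Tg(*fli1a*: EGFP) embryos, 3 *nlrc3* MO and 3 control MO samples, grouped by the sample titles. According to the methods, the authors trimmed with Cutadapt, aligned with HISAT2 to an Ensembl zebrafish genome, assembled with StringTie and computed FPKM, which they deposited rounded to 2 decimals. The submitters' processing notes instead name CASAVA 1.8, Bowtie 0.12.2 and a mouse build. Column names were tied to samples through the authors' own table that heads identical FPKM with the sample names. Their fold change, p-value and q-value columns were not used. The low FPKM showed no steps of whole reads (at most 2.93% of genes shared 1 ratio between samples), so depth is unknown and precision is the spread of 3 samples.

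From the deposited FPKM, log2(FPKM + 0.1) of 15155 genes (0.5 FPKM or more in 3 or more samples) was fitted with limma 3.58.1 (R 4.3.3, lmFit, eBayes with a trend), with Benjamini-Hochberg adjustment over all of them. Genes were called where the adjusted p was under 0.05 and the fold was over 2 or under 0.5. Fold changes on this scale understate changes of low genes. The fit was also run on simulated data in which only a small part of the genes, none of low FPKM, was changed. That setting differs from these data, so it does not bear on the calls of low genes here. Exact permutation tests were two-sided (scipy 1.17.1). Figures were drawn with matplotlib 3.10.9.

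Sample values were given for ligands with a group mean of at least 1 FPKM, for all tested receptors, Sprouty and Spred genes, for MAP kinase phosphatases called or with a group mean of at least 10 FPKM, and for called atypical Dusp genes. The members, lists and tests were chosen with earlier results of these data known, and the shares and ratios after the values were seen. Of the 71 identifiers, 70 were found in a separate list of zebrafish gene names. No sequence or coordinate was used here.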

Additional observations from a re-analysis of the deposited data

How the results depend on the processing

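The 26 members called lower numbered 22 to 28 over the alternatives, and 25 to 27 with 1 sample left out at a time. The 6 receptor calls did not change in number, ligand calls numbered 4 to 7, Sprouty and Spred calls 5 or 6 and Dusp calls 6 to 9. With a pseudocount of 1, 2298 genes were called in all, against 3832, and without the fold limit 9558. Members called higher were 1 without the filter on low values (*fgf17*, at 0.14 to 0.31 FPKM in the *nlrc3* MO samples and 0.03 to 0.06 FPKM in the control MO samples) and 2 without the fold limit. Scaling moved all genes together. Over all tested genes the median log2 fold change was -0.22 as deposited, -0.60 as TPM and -0.019 after median-of-ratios scaling, and that of the members -1.91, -2.42 and -1.70. The calls split into 741 higher and 3091 lower as deposited, 295 and 4620 as TPM, and 1152 and 2522 after median-of-ratios scaling.

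Directions turned for genes that were not called: *dusp7* (0.063) and *fgf12b* (0.14) after median-of-ratios scaling, *fgfr1op* (-0.27), *fgfr1op2* (-0.21) and *fgfrl1b* (-0.30) as TPM. With 1 sample left out at a time *fgf12b* ranged from -0.20 to 0.13. The cause of these changes was the shift of all genes that each scaling adds, apart from that of *fgf12b* without a sample, whose cause was not tested. The call of *dusp5* was lost after median-of-ratios scaling and without *nlrc3* MO sample 2, and that of *dusp28* without control MO sample 1 or 2.

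A fit with the replicate number as a block changed no call of a named gene and gave 26 members called lower, with 3845 genes called in all, while the adjusted p of *fgfr1op2* became 0.056 in limma with Benjamini-Hochberg adjustment. Over all tested genes, deviations of same-numbered samples from their group means correlated at 0.0041, 0.040 and -0.0034. The labels do not say whether same-numbered samples were made together, and these correlations cannot settle it. The read depth behind the FPKM is unknown, so the counting error of low values cannot be given, and the 32 members that failed the filter, none above 0.72 FPKM, were not tested.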

Other observations

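Some copies or relatives among the genes of the pathway divided, while others did not. The pairs *fgfr1a* and *fgfr1b*, *fgf10a* and *fgf10b*, and *spred2a* and *spred2b* were called lower in both copies. Of these, *fgf10a* passed the filter through the control MO samples alone and could only come out lower. With a pseudocount of 1, *fgf10b* and *spred2b* lost their calls (log2 fold changes of -0.63 and -0.98). The call of *spred2b* was also lost after median-of-ratios scaling (-0.92). *fgfrl1a*, *frs2a* and *grb2a* were called lower in the *nlrc3* MO samples while *fgfrl1b*, *frs2b* and *grb2b* were not, and *dusp6* and *dusp8a* were called lower while their relatives *dusp7* and *dusp16* were not. Within samples, the log2 ratio of *dusp6* to *dusp7* was 2.53 ± 0.0239 in the *nlrc3* MO samples and 4.54 ± 0.107 in the control MO samples (SD, n = 3 each, exact permutation p = 0.1). The protein phosphatase genes *ptpn11a* and *ptpn11b*, copies of the Shp2 gene that acts downstream of FGF receptors, moved in opposite directions, with log2 fold changes of -0.47 and 0.52 (Benjamini-Hochberg adjusted p = 0.00168 and 8.81e-05 in limma). *ptpn11a* was at 5.17 to 5.69 FPKM in the *nlrc3* MO samples and 6.99 to 7.79 FPKM in the control MO samples, and *ptpn11b* at 19.6 to 21.1 FPKM in the *nlrc3* MO samples and 14.0 to 14.7 FPKM in the control MO samples. The pairs were chosen with their values known, and the difference between copies was not tested for *frs2*, *grb2* and *ptpn11*.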
